A study of Mus musculus with 12 samples.

Results

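A set of 10 genes that encode the chains of receptors for interleukin (IL)-6, IL-18, IL-12, IL-27, interferon-γ (IFNγ) and IL-10 was followed at the RNA level in mouse naïve CD4+ T cells and in the regulatory T (Treg) cells made from them. These inflammatory cytokine receptors were chosen by gene name (Il6ra, Il6st, Il18r1, Il18rap, Il12rb1, Il12rb2, Il27ra, Ifngr1, Ifngr2 and Il10ra), with no threshold on their levels, among 19057 genes named on the array. Earlier results of these data were known when the receptor genes were chosen. The receptor genes were represented by 20 of the 45281 probes. Of these, 18 probes of 9 genes passed the filter on dim signals, which asks for a signal over the array's median on at least 2 arrays. The other 2, the only probe of Il12rb2 and the second probe of Il6st, were above background on 0 of the 12 arrays.

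All cells came from Foxp3GFP mice, in which green fluorescence marks cells that express Foxp3. Naïve CD4+CD62L+ T cells had been isolated either with a cell sorter (FACS) or with magnetic beads (MACS). They were measured as naive cells (4 arrays), after culture in high TGF-β (Treghi, 4 arrays), or after culture in low TGF-β with harmine, an inhibitor of DYRK kinases from plants (TregHAR, 4 arrays). GFP+ Treg cells of both cultures were sorted by FACS at day 4, and each treatment held 2 arrays per purification. Cells given low TGF-β alone were not among the arrays, so harmine and the dose of TGF-β cannot be told apart. The naive arrays differ from the others in culture, activation and the final GFP sort as well. The labels do not state if replicates were separate animals or cultures. The p-values therefore reflect the spread between these arrays, which may be technical in part. Naive replicates 1 and 2 differed in sex-linked RNA, as given below, so they did not come from the same animals.

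Cytokine receptors of this kind work as pairs of chains. IL-6 binds its own receptor chain, encoded by Il6ra, which recruits gp130, encoded by Il6st, and the pair signals through JAK kinases and STAT3. IL-6 together with TGF-β drives naïve CD4+ T cells towards the Th17 fate, whereas TGF-β without IL-6 favours Treg cells. IL-27 uses Il27ra with the same gp130, IL-12 uses Il12rb1 with Il12rb2 and signals through STAT4 towards the Th1 fate, and IFNγ uses Ifngr1 with Ifngr2. IL-18 belongs to the IL-1 family and signals through Il18r1, Il18rap and the adaptor MyD88. Il10ra is the ligand-binding chain for IL-10, which restrains inflammation.

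Promoter windows from 250 bases before to 50 bases after the start were found for 7 of the 10 genes in a RefSeq table (GRCm38.p6). Il6ra and Il6st both fell after induction, whereas Ifngr1 and the brightest of the Ifngr2 probes varied in opposite directions among the TregHAR arrays. The windows of these genes are therefore printed here, 5′ to 3′. They lie at chr3:89913147-89913446 (minus strand), chr13:112463820-112464119 (plus), chr10:19591699-19591998 (plus) and chr16:91546809-91547108 (plus). Capitals mark matches on either strand to the STAT-binding GAS motif TTCNNNGAA, the SMAD-binding letters CAGAC or the GC box GGGCGG, which can overlap themselves. Of 32851 windows of this length, 8.3% held the first, 49.6% the second and 35.7% the third.
Il6ra: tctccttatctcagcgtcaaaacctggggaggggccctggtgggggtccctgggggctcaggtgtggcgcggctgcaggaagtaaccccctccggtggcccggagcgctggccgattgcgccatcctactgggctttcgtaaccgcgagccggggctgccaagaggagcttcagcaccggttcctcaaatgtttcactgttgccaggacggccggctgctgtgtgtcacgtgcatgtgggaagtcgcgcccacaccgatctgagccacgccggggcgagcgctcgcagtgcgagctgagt
Il6st: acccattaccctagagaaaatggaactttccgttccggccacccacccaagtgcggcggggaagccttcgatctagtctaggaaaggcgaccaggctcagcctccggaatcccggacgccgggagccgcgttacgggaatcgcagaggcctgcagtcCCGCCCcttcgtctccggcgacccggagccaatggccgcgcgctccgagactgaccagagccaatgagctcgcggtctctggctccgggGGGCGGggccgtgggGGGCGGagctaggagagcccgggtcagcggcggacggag
Ifngr1: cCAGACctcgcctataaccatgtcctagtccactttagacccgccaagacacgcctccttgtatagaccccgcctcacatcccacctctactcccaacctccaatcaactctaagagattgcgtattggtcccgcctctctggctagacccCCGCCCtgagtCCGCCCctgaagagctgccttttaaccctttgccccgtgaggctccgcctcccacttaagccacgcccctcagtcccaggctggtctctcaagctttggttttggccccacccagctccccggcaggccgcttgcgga
Ifngr2: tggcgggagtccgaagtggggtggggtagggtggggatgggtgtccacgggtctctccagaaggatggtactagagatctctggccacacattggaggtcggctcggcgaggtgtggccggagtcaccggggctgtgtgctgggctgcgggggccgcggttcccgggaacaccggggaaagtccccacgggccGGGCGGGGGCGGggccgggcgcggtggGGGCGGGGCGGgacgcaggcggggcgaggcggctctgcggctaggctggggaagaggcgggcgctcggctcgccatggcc
The Il6ra window held 0 matches to any of the 3, and that of Il6st held 3 GC boxes. The Ifngr1 window held 2 GC boxes and 1 CAGAC, and that of Ifngr2 held 4 GC boxes. None of these 4 windows held the GAS letters, whereas 1 of the 3 Il18r1 windows held 2 matches and the Il12rb2 window held 1. A match is a description of the letters and not of a bound factor.

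The arrays resembled each other closely, with correlations across the tested genes of 0.982 to 0.993 within the 6 replicate pairs and of 0.978 to 0.992 between TregHAR and Treghi arrays. Of 6 T cell markers, Cd3d, Cd3e, Cd3g, Cd4 and Lat were above background on all 12 arrays and Cd5 on 1. Of 8 Treg markers, Foxp3 itself had log2 levels of 7.09 to 7.41 on naive arrays and of 6.62 to 7.40 on Treg arrays, so its probe did not separate them. Ikzf2 (6.12 to 6.61 and 6.11 to 6.56) and Itgae (6.07 to 6.44 and 5.94 to 6.98) overlapped as well. Il2ra lay at 5.88 to 6.04 on naive arrays and at 9.04 to 10.32 on Treg arrays. Ctla4, Gpr83, Tnfrsf18 and Nrp1 were likewise higher on every Treg array than on any naive array. Of 7 markers of CD8 and NK cells measured, Cd8b1 (9.38 to 10.58), Prf1 and Nkg7 were above background on all 12 arrays, Klrd1 on 10, Klrb1c on 3, and Klrk1 and Eomes on 1 each. Their summed intensity was 2826 to 3490 on naive FACS, 4614 to 4788 on naive MACS and 2253 to 3651 on Treg arrays. Naive arrays also carried RNA of other blood cells. The summed intensity of 14 myeloid markers was 3115 to 6130 on naive FACS arrays, 14884 to 30809 on naive MACS arrays and 822 to 888 on Treg arrays, where at most 1 of the 14 was above background, and erythroid and B cell markers were likewise highest on naive MACS arrays. Their part in the differences between Treg and naive cells was not tested. Eif2s3y, a Y-linked gene, was above background on 2 of 4 arrays in each treatment, which were the replicate 2 arrays in naive and Treghi cells and both MACS arrays in TregHAR cells. Xist lay at 5.76 and 5.84 on the naive arrays with Eif2s3y signal and at 8.19 to 10.49 on all others, so that the make-up by sex differed between naive and Treg arrays. It also differed between naive replicates 1 and 2 of both purifications (Eif2s3y at 5.96 and 6.07 against 8.07 and 8.08). Sex and replicate number cannot be told apart among the naive arrays. In such bulk samples, fewer cells of a type and less RNA per cell cannot be told apart.

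Induction of Treg cells came with lower RNA of the IL-6, IL-27 and IFNγ receptor chains Il6ra, Il6st, Il27ra and Ifngr2, and 1 of these, Il6ra, was lower still in TregHAR than in Treghi cells. The 6 group means were estimated for all genes in 1 limma model, and a gene was called changed at a Benjamini-Hochberg adjusted p under 0.05 over the 15663 genes tested. Of these, 5515 were above background on no array, whereas each of the 9 receptor genes tested was above it on at least 1. The shares of all genes given below include those 5515. Between TregHAR and Treghi cells, 1 of the 9 receptor genes tested was lower and 0 were higher, where 0.294% of all genes were lower and 0.172% higher. Unadjusted p under 0.05 was found for 2 of the 9, Il6ra and Il18r1, and for 10.8% of all genes. Between TregHAR and naive cells, 4 receptor genes were lower and 1 was higher (all genes, 13.7% and 13.8%), and between Treghi and naive cells, 4 were lower and 0 higher (all genes, 13.2% and 12.8%). The median log2 difference of the 9 genes was 0.02 between TregHAR and Treghi cells, -0.42 between TregHAR and naive cells and 0.10 between Treghi and naive cells, where the median of all genes lay between -0.01 and 0.00 in each. The last 2 comparisons share their naive arrays and all 3 share arrays in pairs.

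**Figure D1:**
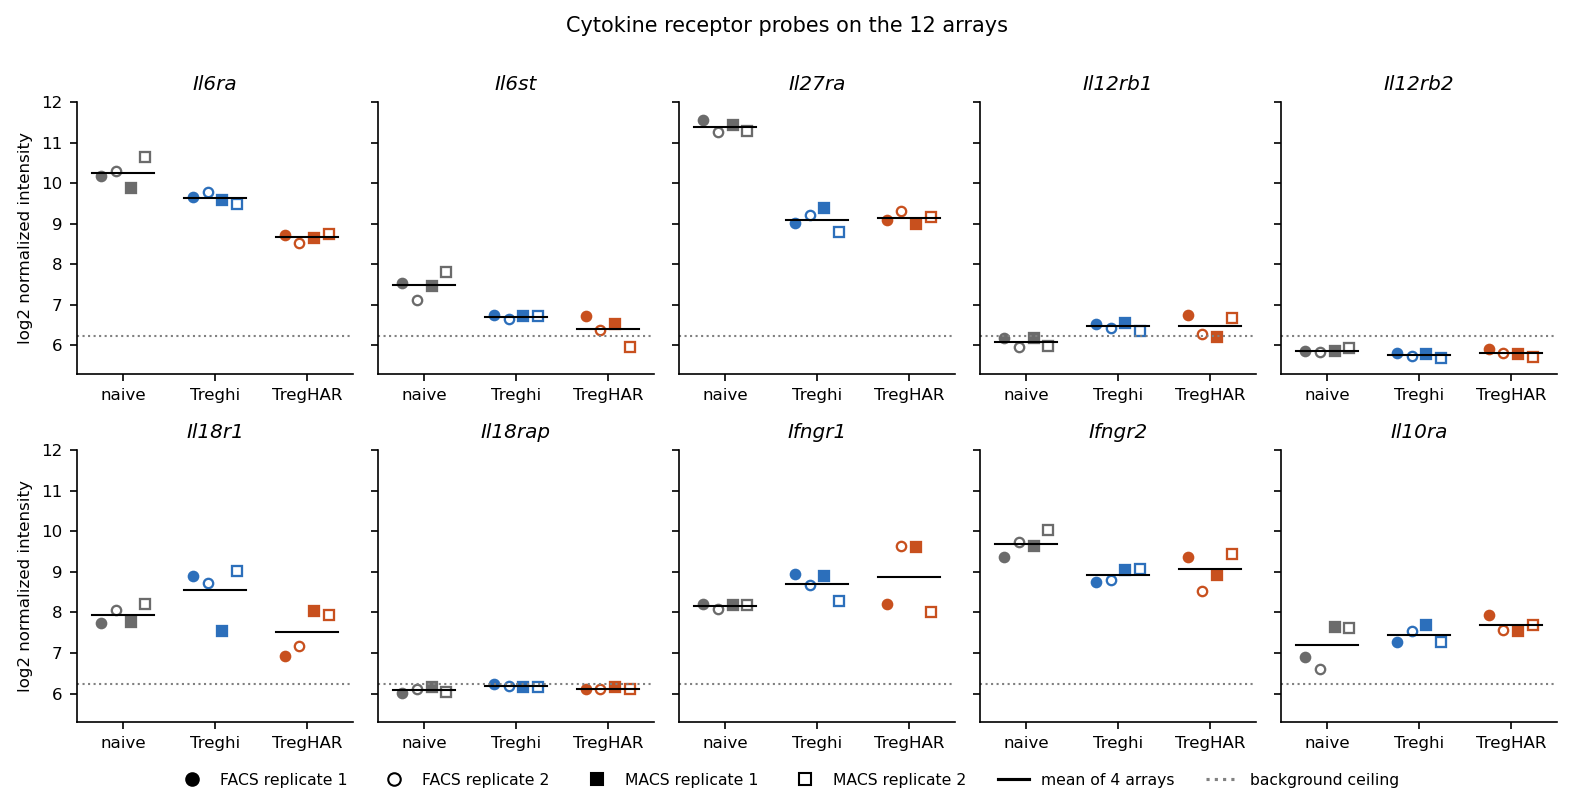
Log2 normalized intensity of the brightest kept probe of each receptor gene (for Il12rb2, its only probe) on the 12 arrays, by treatment, with circles for FACS and squares for MACS precursors, filled for replicate 1 and open for replicate 2, a line at the mean of 4 arrays and a dotted line at the background ceiling. Il6ra steps down from naive (9.88 to 10.65) through Treghi (9.50 to 9.79) to TregHAR (8.53 to 8.75), while Ifngr1 spreads from 8.01 to 9.64 within TregHAR.

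Il6ra, the chain that binds IL-6, was the only receptor gene called between TregHAR and Treghi cells. Its log2 level on the FACS 1, FACS 2, MACS 1 and MACS 2 arrays was 10.18, 10.31, 9.88 and 10.65 in naive cells, 9.67, 9.79, 9.59 and 9.50 in Treghi cells, and 8.73, 8.53, 8.65 and 8.75 in TregHAR cells. The 3 ranges did not overlap, and every TregHAR array lay at least 0.75 below every Treghi array. The log2 difference between TregHAR and Treghi cells was -0.97 ± 0.14 (SE, n = 4 arrays each), a 1.96-fold lower level (limma adjusted p = 0.0335). It was -1.10 within FACS and -0.84 within MACS precursors, neither of which was called by itself (adjusted p = 0.145 and 0.452). Against naive cells, Il6ra fell 3.0-fold in TregHAR (-1.59 ± 0.14, limma adjusted p = 2.44e-05) and 1.53-fold in Treghi cells (-0.62 ± 0.14, adjusted p = 0.00989).

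The size of the Il6ra difference between TregHAR and Treghi cells was steadier than its call. Leaving out 1 array at a time kept it between -1.02 and -0.92, but the call held in 4 of these 12 fits. The adjusted p rose to 0.0615 without naive FACS 1 or naive FACS 2, to 0.152, 0.140 and 0.108 without Treghi FACS 1, FACS 2 and MACS 1, and to 0.0940, 0.0597 and 0.0586 without TregHAR FACS 1, MACS 1 and MACS 2. Il6ra had 2 further probes, both above background on all 12 arrays. They gave -0.56 ± 0.12 and -0.29 ± 0.08 in the fit of single probes, with adjusted p of 0.102 and 0.242, where the brightest probe gave 0.0364 and 0.275% of the 25829 kept probes with 1 gene were called. All 3 probes were called lower than naive in TregHAR (-1.59, -1.0 and -0.69) and in Treghi cells (-0.62, -0.44 and -0.40).

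Il6st, the signal-transducing chain gp130, was lower in both kinds of Treg cell than in naive cells. Its levels were 7.53, 7.13, 7.47 and 7.80 in naive cells, 6.76, 6.65, 6.72 and 6.72 in Treghi cells, and 6.72, 6.37, 6.52 and 5.96 in TregHAR cells, the last of which was under the background ceiling. The ranges of naive and Treg arrays did not overlap, while those of TregHAR and Treghi arrays did. The decrease from naive cells was 1.70-fold in Treghi cells (-0.77 ± 0.15, limma adjusted p = 0.00322) and 2.13-fold in TregHAR cells (-1.09 ± 0.15, adjusted p = 0.000347). The difference between TregHAR and Treghi cells was -0.32 ± 0.15 with an interval of -0.65 to 0.01 (adjusted p = 0.488).

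The genes whose levels followed that of Il6ra most closely over the 12 arrays were Igfbp4, a binding protein of insulin-like growth factors, with a Pearson r of 0.97, and the immediate early transcription factor Egr1, with 0.96. Fchsd2 (0.957), Prkacb, a catalytic subunit of protein kinase A (0.953), and Tulp4 (0.952) came next among the 10147 other genes above background on at least 1 array. Mean levels in naive, Treghi and TregHAR cells were 11.73, 11.07 and 10.25 for Igfbp4 and 11.10, 8.88 and 7.2 for Egr1. The 12 arrays fall into 3 treatments that differ in Il6ra, and no p is given for this likeness.

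Il27ra, the ligand-binding partner of gp130 in the IL-27 receptor, had the largest change of the receptor genes, and it did not differ between the Treg cells beyond its error. It lay at 11.56, 11.26, 11.43 and 11.28 on naive arrays, at 9.03, 9.21, 9.38 and 8.79 on Treghi arrays, and at 9.09, 9.32, 9.0 and 9.16 on TregHAR arrays. Every Treg array was thus at least 1.87 below every naive array, and the Treghi and TregHAR ranges overlapped. Il27ra fell 4.85-fold in Treghi cells (-2.28 ± 0.13, limma adjusted p = 1.74e-06) and 4.72-fold in TregHAR cells (-2.24 ± 0.13, adjusted p = 1.75e-06), with FACS and MACS differences between -2.29 and -2.21. The other Il27ra probe fell by 1.72 on the log2 scale in both comparisons (23.2% and 21.8% of single probes were called against naive cells in TregHAR and Treghi cells). Between TregHAR and Treghi cells the difference was 0.04 ± 0.13, with an interval of -0.26 to 0.34.

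The IL-12 receptor chains were dim. Il12rb1, shared by the receptors for IL-12 and IL-23, was under the background ceiling on all 4 naive arrays (5.96 to 6.19). It was above it on all 4 Treghi arrays (6.53, 6.43, 6.55 and 6.36) and on 3 of 4 TregHAR arrays (6.76, 6.28, 6.20 and 6.68 for FACS 1, FACS 2, MACS 1 and MACS 2). With naive arrays set to the ceiling, the level was at least 1.18-fold higher in Treghi and at least 1.20-fold higher in TregHAR cells, and neither passed the threshold (limma adjusted p = 0.0643 and 0.053). The first was called without any 1 of the TregHAR arrays (0.39, adjusted p = 0.0373 to 0.0391), and the second without TregHAR FACS 2 or MACS 1 (0.52 each, adjusted p = 0.0171 and 0.0161). Both were called with median scaling (adjusted p = 0.0424 and 0.0414), the stricter filter (0.0454 and 0.0372), the mean of probes (0.0243 and 0.0324) and treatment means alone (0.0298 and 0.0232), and each in 9 of its alternatives, 25 for Treghi and 27 for TregHAR. The other probe, above background on 7 arrays as well, gave 0.39 ± 0.12 for Treghi against naive cells (adjusted p = 0.0364) and 0.32 ± 0.12 for TregHAR (0.078). TregHAR and Treghi cells differed by 0.02 ± 0.13, with an interval of -0.29 to 0.32. Il12rb2, the chain that gives IL-12 its STAT4 signal, was not above background on any array, with values of 5.69 to 5.94 that carry no order.

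Il18r1, the ligand-binding chain for IL-18, varied widely between replicates. Its levels on the FACS 1, FACS 2, MACS 1 and MACS 2 arrays were 7.74, 8.06, 7.76 and 8.20 in naive cells, 8.90, 8.73, 7.55 and 9.03 in Treghi cells, and 6.93, 7.18, 8.03 and 7.94 in TregHAR cells. Treghi MACS 1 lay over 1 log2 unit below the other 3 Treghi arrays, and the TregHAR arrays were low after FACS and higher after MACS. The log2 difference between TregHAR and Treghi cells was -1.03 ± 0.27, with an interval of -1.63 to -0.43, which did not pass the threshold (limma adjusted p = 0.15). Within FACS it was -1.76 and within MACS -0.30. The test of that gap, the interaction of 1.46 ± 0.53, had an unadjusted p of 0.0218 and an adjusted p of 0.915, and 0% of all genes were called in it while 4.95% had an unadjusted p under 0.05. In TregHAR cells both MACS arrays and neither FACS array carried Eif2s3y signal, so purification and that signal cannot be told apart there.

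Without Treghi MACS 1, the Il18r1 difference between TregHAR and Treghi cells was -1.40 (adjusted p = 0.01) and that between Treghi and naive cells 0.98 (adjusted p = 0.000714), where all 12 arrays gave 0.61 ± 0.27 (adjusted p = 0.138). Without Treghi MACS 2 the same differences were smaller, at -0.66 (adjusted p = 0.0785) and 0.24 (adjusted p = 0.28). TregHAR and naive cells differed by -0.42 ± 0.27 (adjusted p = 0.318), which was called without Treghi MACS 1 or MACS 2 (-0.42 and adjusted p = 0.0284 in each). On the other Il18r1 probes every Treghi array lay above every TregHAR array. Levels were 6.54 to 6.68 against 6.28 to 6.46 on 1 and 6.16 to 6.49 against 5.92 to 6.06 on the other. These probes were dimmer and steadier. They gave -0.25 ± 0.07 and -0.34 ± 0.08 between TregHAR and Treghi cells (adjusted p = 0.174 and 0.135) and were called higher in Treghi than in naive cells by 0.26 ± 0.07 and 0.33 ± 0.08 (adjusted p = 0.0165 and 0.014), the last of them above background on 3 arrays. Il18rap, the accessory chain that completes the IL-18 receptor and the next coding gene to Il18r1 on chromosome 1, was above background on 1 array with its main probe and on 2 with the other. Its levels of 6.02 to 6.23 with the main probe and 5.79 to 6.27 with the other showed no difference past the threshold in any comparison. Nearly all of them lay under the background ceiling, so the absence of a call carries no information on the levels of Il18rap.

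**Figure D2:**
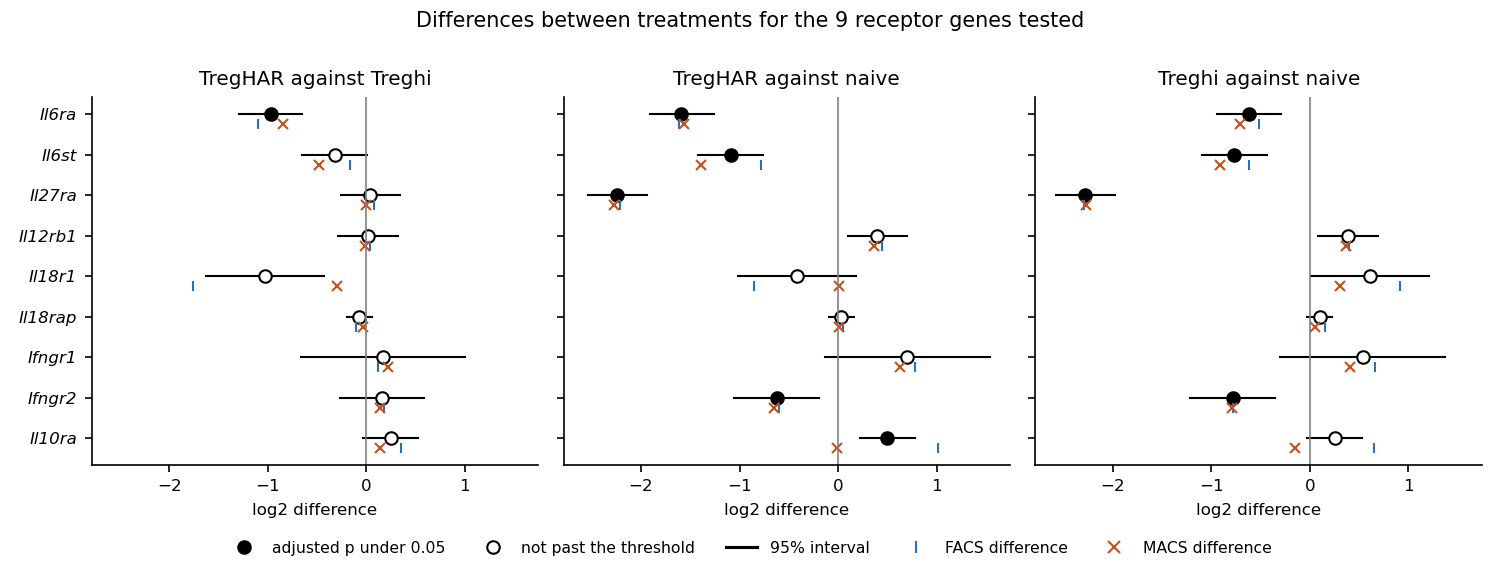
Log2 differences (points, mean of the FACS and MACS differences) with 95% intervals for the 9 receptor genes tested, in 3 comparisons of treatments, filled where the adjusted p was under 0.05, with the FACS (bars) and MACS (crosses) differences under each point. Il6ra is the only filled point between TregHAR and Treghi cells (-0.97), and the MACS and FACS values part most for Il18r1 there (-0.30 and -1.76) and for Il10ra against naive cells (-0.01 and 1.01 in TregHAR).

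By the brightest probe of each, the chains of the IFNγ receptor moved apart among the TregHAR arrays. Ifngr1, the ligand-binding chain, lay at 8.21, 8.08, 8.18 and 8.18 in naive cells, at 8.94, 8.68, 8.89 and 8.29 in Treghi cells, and at 8.21, 9.64, 9.61 and 8.01 on the FACS 1, FACS 2, MACS 1 and MACS 2 arrays of TregHAR cells. TregHAR FACS 2 and MACS 1 were thus higher than all naive and Treghi arrays, while FACS 1 and MACS 2 were at or near the naive level. The brightest probe of Ifngr2, the chain that brings JAK2 to the receptor, lay at 9.38, 8.53, 8.93 and 9.45 on the same TregHAR arrays, the opposite order of pairs. It lay at 9.36, 9.75, 9.64 and 10.04 in naive and at 8.75, 8.80, 9.04 and 9.07 in Treghi cells. The other Ifngr2 probes did not show this opposite order. They lay at 6.52, 6.58, 6.55 and 6.36 and at 6.05, 6.41, 6.35 and 6.20 on the same TregHAR arrays. The dimmest was above background on 2 of these 4 arrays. Across genes, replicate 1 minus replicate 2 of TregHAR cells after FACS correlated at -0.622 with the same difference after MACS. This tendency did not hold for every gene, since the levels of Il6st and Il18r1 did not part the TregHAR arrays in these pairs. Of the CD8 and NK markers, Nkg7 was 7.71 and 7.87 on TregHAR FACS 1 and MACS 2 and 9.70 and 9.19 on FACS 2 and MACS 1, Prf1 was 10.39 and 10.71 against 9.02 and 9.49, and Cd8b1 stayed between 10.36 and 10.58. Cxcr3, a chemokine receptor induced in Th1 cells and singled out here after its values were seen, followed Ifngr1 with 6.45 and 7.14 on TregHAR FACS 1 and MACS 2 and 8.0 and 8.05 on FACS 2 and MACS 1. The split was not particular to such genes. Of the naive T cell markers, Klf2 was 9.43 and 9.06 against 10.44 and 10.40, and Ccr7 was 7.31 and 7.14 against 8.11 and 7.93. Il7r ran the other way (7.69 and 8.20 against 7.55 and 7.44), as did Junb (9.59 and 9.55 against 8.95 and 8.79). Lef1 did not part the pairs. Purification and Eif2s3y signal, which coincide in TregHAR cells, divide these 4 arrays differently, and the part of such markers in the split was not tested.

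With all arrays, Ifngr1 did not pass the threshold in any comparison. It differed by 0.70 ± 0.37 between TregHAR and naive cells (interval -0.13 to 1.54, limma adjusted p = 0.216), by 0.54 ± 0.37 between Treghi and naive cells (adjusted p = 0.382) and by 0.17 ± 0.37 between TregHAR and Treghi cells (interval -0.66 to 1.0). Without TregHAR MACS 2, the first was 1.11 (adjusted p = 0.0275). Without both TregHAR FACS 1 and MACS 2 it was 1.46 (adjusted p = 0.000375), and without both FACS 2 and MACS 1 it was -0.06 (adjusted p = 0.883). Ifngr1 had a single probe.

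Ifngr2 was lower than in naive cells in both kinds of Treg cell. The log2 difference was -0.78 ± 0.19 in Treghi cells, a 1.72-fold decrease with no overlap of arrays (limma adjusted p = 0.0128), and -0.62 ± 0.19 in TregHAR cells, a 1.54-fold decrease in which TregHAR MACS 2 and FACS 1 overlapped the lowest naive array (adjusted p = 0.0363). The second call was lost without naive FACS 2 or MACS 2 (-0.53 each, adjusted p = 0.132 and 0.115), Treghi FACS 1 or FACS 2 (-0.62, adjusted p = 0.0581 each), TregHAR FACS 2 (-0.41, 0.0965) or TregHAR MACS 1 (-0.49, 0.118). It was also lost with median scaling (-0.47, adjusted p = 0.0648) and the deposited log2 values (-0.57, 0.0559). The call in Treghi cells was lost without naive FACS 2 (-0.69, adjusted p = 0.0561). Of its other probes, 1 was called lower in TregHAR and Treghi cells (-0.48 ± 0.07 and -0.39 ± 0.07, adjusted p = 0.00072 and 0.003) and the dimmest gave -0.20 ± 0.09 and -0.09 ± 0.09 (adjusted p = 0.175 and 0.599). Between TregHAR and Treghi cells Ifngr2 differed by 0.16 ± 0.19, with an interval of -0.27 to 0.59.

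**Figure D3:**
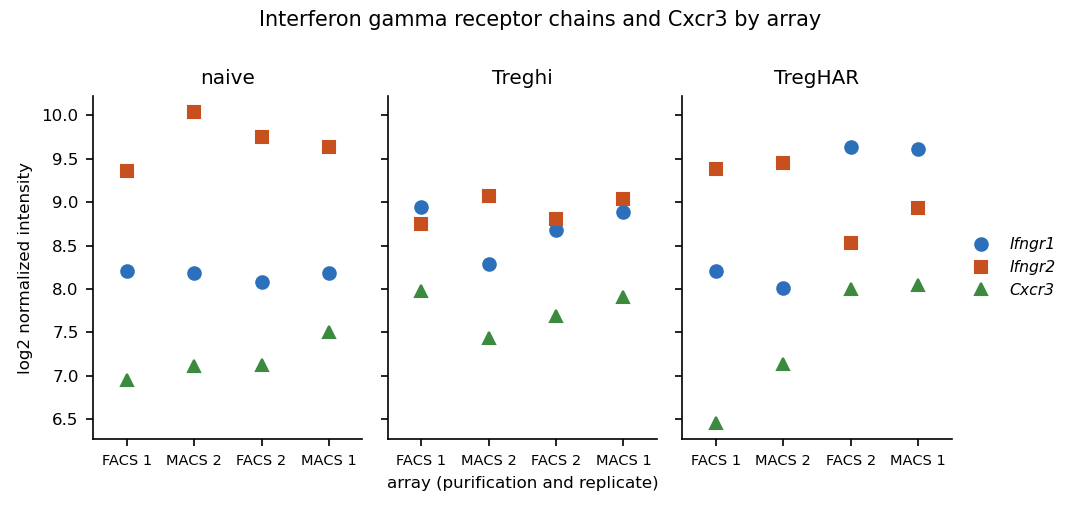
Log2 normalized intensity of the brightest kept probes of Ifngr1 (circles), Ifngr2 (squares) and Cxcr3 (triangles) on each array, by treatment. The arrays are ordered as FACS 1, MACS 2, FACS 2 and MACS 1. In TregHAR cells Ifngr1 and Cxcr3 are low on the first pair (8.21 and 8.01 for Ifngr1) and high on the second (9.64 and 9.61). The Ifngr2 probe shown runs the other way, which the other Ifngr2 probes do not. Naive levels of Ifngr1 stay between 8.08 and 8.21, and levels of different probes cannot be set against each other.

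Il10ra was the 1 receptor gene called higher in TregHAR than in naive cells, with unlike values in the FACS and MACS precursors. Its levels were 6.91 and 6.60 on naive FACS arrays and 7.63 and 7.62 on naive MACS arrays, 7.28, 7.54, 7.69 and 7.26 on Treghi arrays, and 7.94, 7.58, 7.54 and 7.68 on TregHAR arrays. The TregHAR arrays lay above both naive FACS arrays and around the naive MACS arrays. Over both purifications Il10ra rose 1.41-fold in TregHAR cells (0.50 ± 0.13, limma adjusted p = 0.0138), a call lost without naive FACS 2 (0.42, adjusted p = 0.0596) or TregHAR FACS 1 (0.41, adjusted p = 0.0533), or with treatment means alone (0.50, adjusted p = 0.103). The difference from naive cells was 1.01 within FACS (adjusted p = 0.00313) and -0.01 within MACS (adjusted p = 0.985) for TregHAR cells, and 0.65 (adjusted p = 0.0319) and -0.15 (adjusted p = 0.693) for Treghi cells, a gap between purifications that was not itself tested. TregHAR and Treghi cells differed by 0.25 ± 0.13, with an interval of -0.03 to 0.53 (adjusted p = 0.557).

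Naive MACS and naive FACS cells differed in Il10ra by 0.87 ± 0.18 (unadjusted p = 0.000747, limma adjusted p = 0.053). None of the 9 receptor genes was called in that comparison, where 1.39% of all genes were, and Il10ra was the 1 gene of the 9 with an unadjusted p under 0.05, where 9.82% of all genes had one. Of the myeloid markers 8 of 14, of the B cell markers 4 of 7 and of the erythroid and platelet markers 2 of 5 were called higher in the same comparison. For the receptor genes that fell in Treg cells, naive MACS and FACS cells differed by 0.02 ± 0.20 (Il6ra), 0.30 ± 0.21 (Il6st), -0.06 ± 0.19 (Il27ra) and 0.28 ± 0.27 (Ifngr2), and adjusted p lay between 0.732 and 0.992. From naive to TregHAR cells Il6ra differed by -1.61 within FACS and -1.56 within MACS, Il27ra by -2.21 and -2.27, Ifngr2 by -0.60 and -0.65, and Il6st by -0.78 and -1.39, the last pair being the farthest apart. The difference between TregHAR and Treghi cells was tested for a dependence on purification as an interaction, and 0 of the 9 genes were called, Il18r1 being the 1 with an unadjusted p under 0.05.

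The receptors' ligands, partners and signalling genes were read from 7 lists with 59 genes, of which 51 were tested and 43 were above background on at least 1 array. Between TregHAR and Treghi cells 0 of the 51 were called by limma and 7 had an unadjusted p under 0.05, with a median log2 difference of -0.02 and a range of -1.0 to 0.46. Those named here were picked after their values were seen. The lowest was Ebi3, the shared subunit of IL-27 and IL-35, at 9.10, 9.24, 9.23 and 9.02 on Treghi arrays and 8.43, 7.88, 7.68 and 8.60 on TregHAR arrays. These ranges did not overlap, and the difference of -1.0 ± 0.19 had a limma adjusted p of 0.071. Jak2, the kinase at Ifngr2, differed by -0.51 ± 0.13 (adjusted p = 0.153), Socs3, the feedback inhibitor at gp130, by -0.60 ± 0.31 (adjusted p = 0.564), and Osm, a ligand of the gp130 family, by 0.46 ± 0.15 (adjusted p = 0.259).

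Against naive cells, 8 of the 51 genes were called higher and 15 lower in TregHAR cells, and 5 were higher and 15 lower in Treghi cells (all genes, 13.8% and 13.7% for TregHAR and 12.8% and 13.2% for Treghi cells). Of the 11 ligand genes tested, 3 were called higher and 3 lower in TregHAR and 1 higher and 5 lower in Treghi cells. Of those called lower, Il6 was above background on 0 of the 12 arrays, Il10 on 1 and Il12a on 2, so these calls rest on values at the floor of the measurement. Ebi3 rose by 1.26 ± 0.19 in TregHAR and by 2.26 ± 0.19 in Treghi cells from naive levels of 6.34, 6.37, 7.54 and 7.31. Il1b, an inflammatory product of myeloid cells, was under background on all 8 Treg arrays and lay at 6.58 and 6.92 on naive FACS and 8.64 and 9.63 on naive MACS arrays, so it was at least 3.30-fold lower in TregHAR and at least 3.29-fold lower in Treghi cells. Ifng was likewise under background on Treg arrays, against 6.44 and 6.45 on naive FACS and 7.16 and 7.21 on naive MACS arrays, and was at least 1.51- and 1.5-fold lower. Both ligands were thus highest on the naive MACS arrays, where the summed myeloid, B cell, erythroid and CD8 and NK markers were highest too, and their part was not tested. None of the 6 other receptor chains tested was called in these comparisons or had an unadjusted p under 0.05 (35.7% of all genes had one in TregHAR and 34.2% in Treghi cells). Only 3 of the 6 were above background on any array, however, Il10rb and Ifnar2 on all 12 and Osmr on 3. The absence of a call for the rest carries no information on their levels. Il10rb, the partner of Il10ra, differed by -0.03 ± 0.10 and 0.00 ± 0.10.

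Among signalling genes, Tyk2, a JAK kinase of the IL-12 and IL-10 receptors, fell by 0.66 in TregHAR and by 0.79 in Treghi cells on the log2 scale, and Jak2 fell by 0.67 in TregHAR cells (adjusted p = 0.00377) while its difference in Treghi cells was -0.16 (adjusted p = 0.483). Stat4, the IL-12 signal transducer, fell by 0.65 and by 0.68. Stat6 fell by 0.47 in TregHAR cells, while its difference in Treghi cells was -0.21 (limma adjusted p = 0.2). Between TregHAR and Treghi cells Stat6 differed by -0.25 (limma adjusted p = 0.426). Of the IL-18 pathway, Myd88 fell by 0.80 and by 0.70 and Traf6, a ubiquitin ligase downstream of it, rose by 0.77 and 0.87. Of 9 inhibitors and sheddases, 3 rose and 2 fell in TregHAR (all genes, 13.8% and 13.7%) and 2 rose and 2 fell in Treghi cells (all genes, 12.8% and 13.2%). Adam17, a protease that releases the Il6ra protein from the cell surface, rose by 0.32 ± 0.06 in TregHAR and 0.40 ± 0.06 in Treghi cells, Socs1 rose by 0.36 and 0.31, and the phosphatase Ptpn6 fell by 0.60 and by 0.56.

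Of 10 target genes, 1 rose and 4 fell in TregHAR (all genes, 13.8% and 13.7%) and 1 rose and 5 fell in Treghi cells (all genes, 12.8% and 13.2%). Those that fell include Tbx21, above background on 3 of the 12 arrays, and in Treghi cells Hlx, above background on 2. Calls of these genes rest on values near the floor of the measurement. Junb, an AP-1 factor induced by IL-6, fell 9.29-fold in TregHAR and 8.83-fold in Treghi cells. Irf1, a transcription factor induced by IFNγ, lay at 12.35, 12.57, 12.16 and 12.71 in naive cells and at 9.67 to 10.26 on all 8 Treg arrays, a 5.60-fold and a 5.51-fold decrease (limma adjusted p = 1.63e-06 and 1.90e-06). Pim1, a kinase induced by STAT factors, rose by 1.11 ± 0.11 and 1.04 ± 0.11.

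**Figure D4:**
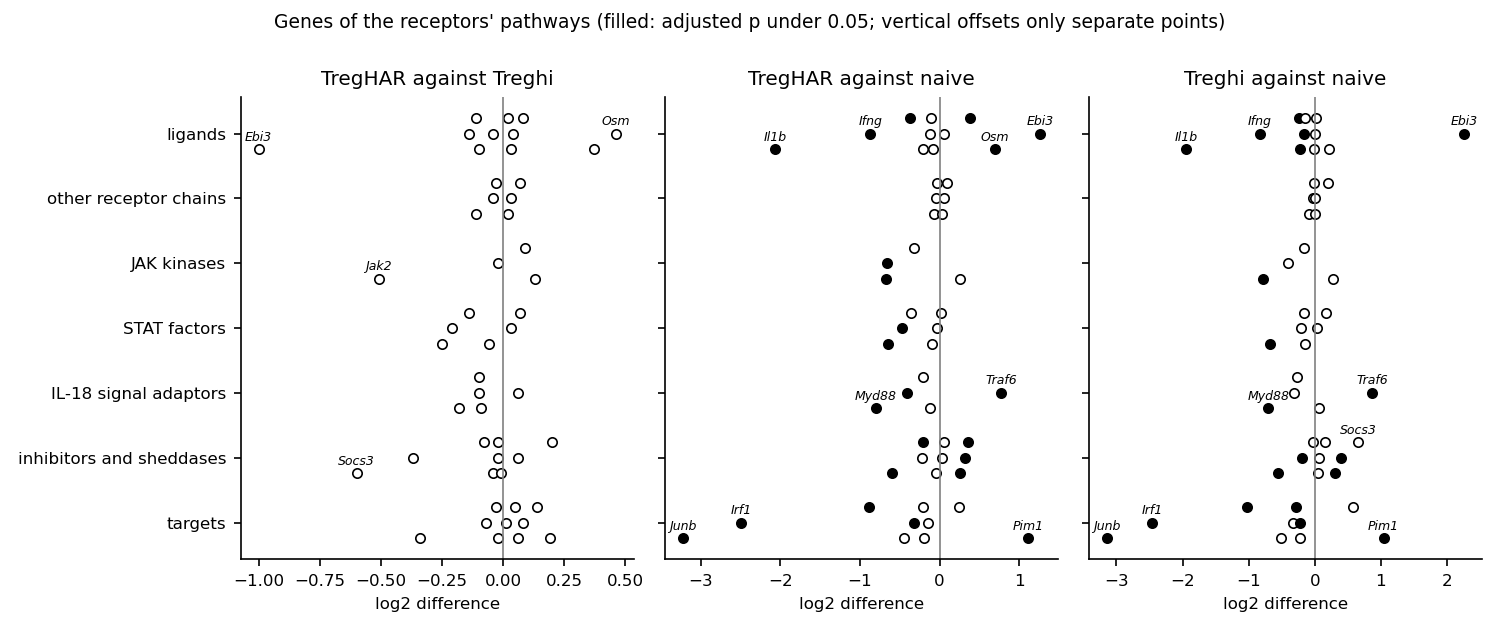
Log2 differences of the 51 tested genes of the receptors' pathways in 3 comparisons, each point 1 gene, by list, filled where the adjusted p was under 0.05, on horizontal scales that differ between panels. No point is filled between TregHAR and Treghi cells, where Ebi3 lies lowest (-1.0), and in both comparisons with naive cells Junb (-3.22 and -3.14) and Irf1 (-2.49 and -2.46) lie far to the left.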

How the data were processed

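Biotin-labelled RNA of 12 samples was hybridized to Illumina Mouse WG-6 v2 chips, with 1 array for each. The authors read the signals with GenomeStudio and deposited non-normalized intensity values. Their mean over all probes was 256.6 on every array and the lowest was 73.7, so they had been scaled between arrays before deposit without subtraction of background. The authors' deposited log2 values, made with lumi by background correction, VST and RSN (a variance-stabilizing step, then spline normalization), served only as an alternative. Columns were mapped to samples through the array names in the labels. Relative to the mean of all arrays in each table, a column of intensities correlated at 0.894 to 0.997 with its own log2 column and at most at 0.855 with any other.

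Background was modelled by normexp (saddle method, offset of 50) in limma 3.58.1 under R 4.3.3, followed by quantile normalization and log2. Probes over the median of an array on at least 2 arrays were kept (32081 of 45281). Of all probes, 34885 had 1 gene in the platform's annotation, 18 several and 10378 none, and the last 2 kinds were left out. The brightest kept probe stood for a gene, which gave 15663 genes. The ceiling of background on an array was set 3 SDs, taken from values under the density peak, above that peak (6.221 to 6.228), and 29.9% to 30.2% of probes exceeded it. A fold against a group wholly under the ceiling is a bound, computed with those arrays at the ceiling. The number of arrays limits the precision.

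The model had 6 residual and 3.43 prior degrees of freedom, two-sided tests and 95% intervals, and a difference between treatments averaged the values within FACS and within MACS. It was also fitted to single probes. The code was tested on simulated data. All 10 receptor genes are named, and of each pathway list up to 3 genes past the threshold by size of change, with others marked as picked later. The receptor genes and lists were chosen with earlier results of these data known. Alternatives were another scaling, no background correction, the deposited log2 values, no or a stricter filter, the mean of a gene's probes, blocks for replicate number, treatment means alone, each purification alone, each array left out and the methods' t-test. A block by Eif2s3y signal, arrays without that signal, crossed replicate numbers and the omission of pairs of TregHAR arrays were added after seeing the data. Same-numbered arrays of a purification did not deviate together in every pair (r of -0.122 to 0.263), so the replicate numbers were not taken to pair the samples.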

Additional observations from a re-analysis of the deposited data

How the results depend on the processing

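The decreases of Il6ra, Il6st and Il27ra from naive to TregHAR cells were called in all 27 alternatives, while that of Ifngr2 was called in 14 and the increase of Il10ra in 20. For Treghi cells Il27ra was called in all 25, Il6st in 24, Il6ra in 22 and Ifngr2 in 21. The call of Il6ra between TregHAR and Treghi cells held in 14 of 28 alternatives, with differences of -1.10 to -0.61 and adjusted p of 0.00195 to 0.452. The number of receptor genes called between TregHAR and Treghi cells was 0 with the deposited log2 values, within FACS, within MACS, on arrays without Eif2s3y signal and without both TregHAR FACS 1 and MACS 2, and 2 at a nominal p of the methods' t-test. Against naive cells it was 3 for TregHAR within MACS, by the methods' t-test after Benjamini-Hochberg adjustment and without Eif2s3y signal, and for Treghi 2 within FACS, 2 without Eif2s3y signal and 7 at a nominal p. It was 1, Il10ra, between naive MACS and FACS cells with median scaling or the stricter filter. Leaving out 1 array gave 0 to 1 between TregHAR and Treghi, 3 to 6 for TregHAR and 3 to 5 for Treghi against naive, 0 to 1 between purifications and 0 for the interaction. The causes were not tested.

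With the replicate number as a block the numbers called were 1, 6, 4, 0 and 0 in the same order, Il12rb1 being added in TregHAR against naive cells (adjusted p = 0.0471), and Il6ra had an adjusted p of 0.0498 between TregHAR and Treghi cells. The block changed no other call, and crossing the numbers of TregHAR arrays gave 0 called. Signs turned for differences that had not passed the threshold, and for that of Il10ra between TregHAR and naive cells, which had (0.50, limma adjusted p = 0.0138). Between TregHAR and Treghi cells Il12rb1 was 0.00 with median scaling, -0.03 as the mean of probes, -0.01 within MACS, -0.02 without Eif2s3y signal, -0.23 without TregHAR FACS 1 and MACS 2, and -0.11 to 0.14 with 1 array left out. Il27ra was 0.00 within MACS and -0.01 without Eif2s3y signal, and -0.11 to 0.19 with 1 array left out. Ifngr2 was -0.01 as the mean of probes and -0.18 without TregHAR FACS 1 and MACS 2, and Ifngr1 was -0.59 without FACS 2 and MACS 1, with ranges of -0.05 to 0.37 and -0.23 to 0.57 when 1 array was left out. Against naive cells TregHAR gave 0.00 to 0.07 for Il18rap with 1 array left out, 0.01 for Il18r1 and -0.01 for Il10ra within MACS and -0.06 for Ifngr1 without FACS 2 and MACS 1, and Treghi gave -0.15 for Il10ra within MACS.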
